A study of Mus musculus with 10 samples.

Results

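The 10 genes described here are core genes of the circadian clock, namely the activators Arntl, Clock and Npas2, the repressors Per1, Per2, Per3, Cry1 and Cry2, and the outputs Dbp and Nr1d1. They were taken by symbol from RNA sequencing tables of mouse hearts. All 10 were found among the 16440 genes present in all 3 tables. The hearts came from 3 Ft1ko, 4 Ft1sm22ko and 3 WT mice of 1 week of age. Ft1ko mice carry a floxed Ft1 gene (Aktip) recombined by a CMV-driven Cre in the whole body. Ft1sm22ko mice carry the floxed gene and a Cre driven by the sm22 (Tagln) promoter, which is active in smooth muscle and, in mouse embryos, also in the heart. The labels call the remaining mice WT with no further detail on their alleles. Animals were kept under a light and dark cycle, and the time of day at which hearts were taken is not given in the sources used here.

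Each table covers 1 pair of groups and gives, per gene, the authors' pooled mean of normalized counts, which are read counts divided by a size factor for each heart, over all hearts of the pair. The means of the 3 groups were solved here from these 3 pooled means and are given on the scale of the Ft1ko and WT table. Values per heart do not enter, so no mean below has an SD, no difference was tested, and whether groups overlap is unknown. A ratio of 2-fold or more was counted and is read against the share of all genes that passed the same limit. This share was taken over the 9773 genes with a pooled mean of at least 100 in every table, a level that all 10 clock genes reached.

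The clock runs on transcription. Arntl pairs with Clock, or with its relative Npas2, and the pair binds E-box sequences to switch on the Per and Cry genes, Nr1d1 and Dbp. Per and Cry proteins return to the nucleus and block the pair. Nr1d1, also known as Rev-erb alpha, represses Arntl through RORE sequences, so that in mouse tissues, heart included, Arntl RNA peaks at a time of day when Dbp and Nr1d1 RNA are low. Dbp binds D-box sequences, such as those of the Per genes.

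The sequences below show where these motifs lie near the starts of 4 of the genes, and are shown because the values that follow set E-box and D-box genes against Arntl. RefSeq promoter windows of 300 bases (250 before and 50 after a start, GRCm38.p6) were at hand for 9 of the 10 genes, all but Per2, and gave 13 windows in all. They were searched on both strands for the E-box CACGTG, the D-box TTATGTAA or TTACGTAA and the RORE core TAGGTCA. Among all 32851 windows of this length 7.15% held the E-box, 1.06% a D-box and 2.61% the RORE core. Capitals mark the match.
Per1, E-box, 166 bases before the start, chr11:69098743-69098828, plus strand: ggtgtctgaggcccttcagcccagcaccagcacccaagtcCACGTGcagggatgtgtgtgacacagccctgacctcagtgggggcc
Cry1, E-box, 60 bases before the start, chr10:85185069-85185154, minus strand: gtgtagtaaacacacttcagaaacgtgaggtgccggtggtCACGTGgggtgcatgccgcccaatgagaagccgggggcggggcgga
Per3, D-boxes, 205 and 158 bases before the start, chr4:151044776-151044910, minus strand: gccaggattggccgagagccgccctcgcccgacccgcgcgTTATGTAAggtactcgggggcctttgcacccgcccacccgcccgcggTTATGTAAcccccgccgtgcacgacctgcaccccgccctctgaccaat
Arntl, RORE core, 31 bases into the transcript, chr7:113207529-113207558, plus strand: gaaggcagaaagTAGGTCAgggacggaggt
A match says only that these letters are present. The windows of Clock, Npas2, Cry2, Dbp and Nr1d1 held none of the 3 motifs, and sites further from the start were not searched.

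The groups differed in more than the clock. Aktip averaged 189.4 normalized counts in Ft1ko, 283.3 in Ft1sm22ko and 649.1 in WT hearts. The study reports the gene as fully depleted in Ft1ko by Q-PCR, with transcripts absent over the deleted region. The means here are of reads over the whole gene, which is not the same measure. The study states that the hearts used for RNA sequencing came from male mice. Xist, an RNA made from the inactive X chromosome of females, averaged 127.5 in Ft1ko, 4265 in Ft1sm22ko and 4120 in WT, while 4 Y-linked genes (Ddx3y, Eif2s3y, Kdm5d and Uty) summed to 1808, 418.7 and 1262. These values go against libraries from males alone in the Ft1sm22ko and WT groups, and which hearts were involved cannot be told from pooled means. Rn45s, the precursor of ribosomal RNA, took 2.46% of the summed means in Ft1ko, 2.41% in Ft1sm22ko and 31.8% in WT. The 6 cardiomyocyte markers (Myh6, Tnnt2, Actn2, Tnni3, Ryr2 and Actc1) all had means of 3627 or more in every group. Their median log2 ratio was -2.23 for Ft1ko over WT (range -2.61 to -1.23) and -1.38 for Ft1sm22ko over WT (range -1.73 to -0.05). Of 4 atrial markers (Myl7, Sln, Nppa and Myl4) the solved means summed to 53578 in Ft1ko and 52083 in Ft1sm22ko. In WT all 4 solved values lay under 0 (-449.7 to -55.5), which leaves no ratio for them. A mean count cannot lie under 0, so these values show an error of the solved means. The WT means of the clock genes come from the same subtraction, and the size of their error is not known. The 5 lung epithelial markers summed to 37730.0 in Ft1ko and 748.2 in Ft1sm22ko, with a WT sum just under 0. In that WT sum Ager stood at 202.0 and the other lung markers lay under 0, with Sftpc at -203.2. The 4 thymocyte markers summed to 3630.4, 94.1 and 31.8. The part of sex, tissue makeup and ribosomal RNA in the values of the clock genes was not tested, and in tissue RNA fewer cells of a type and less RNA per cell cannot be told apart.

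Clock outputs and 2 of the Per genes were lower in both mutants than in WT, and Arntl was higher. For Ft1ko over WT, 4 of the 10 genes (Per1, Per3, Dbp and Nr1d1) were at least 2-fold lower, against 14.7% of all genes, and 1 (Arntl) was at least 2-fold higher, against 14.6% of all genes. For Ft1sm22ko over WT the same limit was passed downwards by Per1, Per3, Dbp and Nr1d1, against 9.53% of all genes, and upwards by 0 of the 10, against 10.5%. In 2 of 11 other settings Arntl (1.19 and 1.01) and Cry1 (1.21 and 1.05) passed it upwards in Ft1sm22ko over WT. With the tables scaled on genes with a mean of at least 1000, Ft1ko over WT had 2 genes higher (Arntl and Cry1) and 2 lower (Per3 and Dbp). Between the mutants, Dbp was at least 2-fold higher in Ft1sm22ko than in Ft1ko (background 4.21%) and 0 of the 10 were 2-fold lower (background 3.31%). The median log2 ratio of the 10 genes was -0.48 in Ft1ko and -0.34 in Ft1sm22ko over WT, and -0.08 in Ft1sm22ko over Ft1ko, where the median of all genes lay at or within 0.01 of 0. Both comparisons with WT use the same 3 WT hearts and are solved from the same 3 pooled means, so their likeness is not independent evidence. With the Ft1sm22ko and Ft1ko table raised by 5%, Arntl rose in both, to 1.57 in Ft1ko and 1.01 in Ft1sm22ko over WT. Arntl fell in both with that table lowered by 5%, to 1.09 in Ft1ko and 0.52 in Ft1sm22ko over WT. Scaling on all genes also lowered it, to 1.05 in Ft1ko and 0.56 in Ft1sm22ko over WT. The 10 genes were chosen with earlier results of these data known, so counts above the share of all genes are not independent evidence either.

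**Figure D1:**
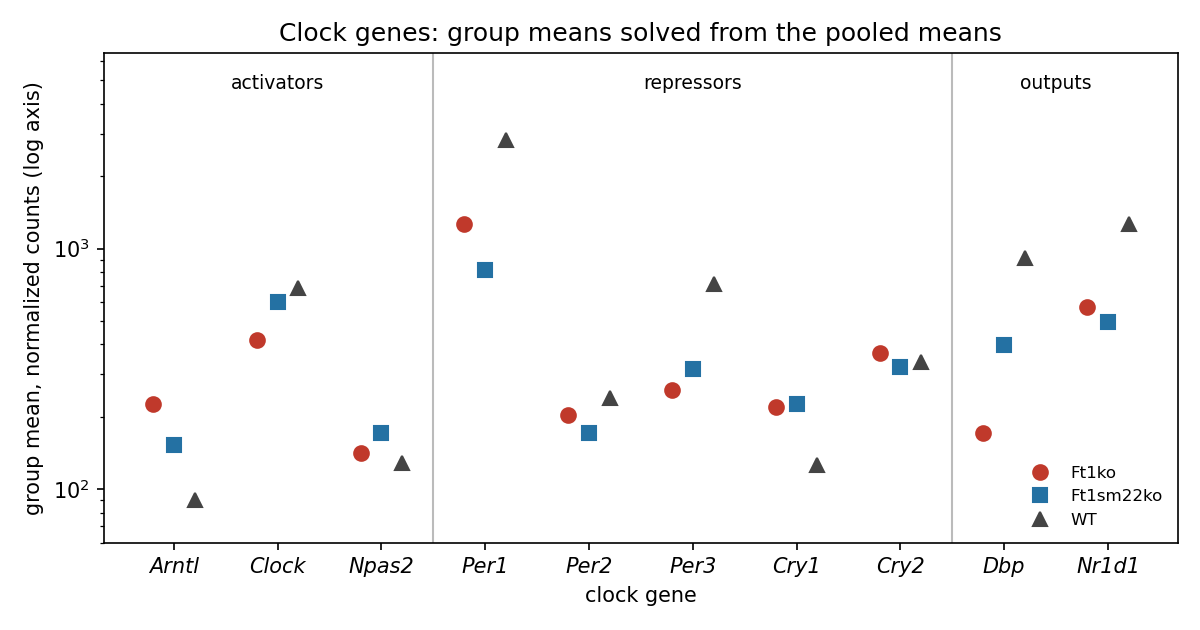
Group means of the 10 clock genes in normalized counts (log axis) in Ft1ko, Ft1sm22ko and WT hearts, solved from pooled means and therefore without error bars. WT lies above both mutants for Per1, Per3, Dbp and Nr1d1 and below both for Arntl and Cry1.

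Among the activators, Arntl was higher in both mutants than in WT, while Clock and Npas2 stayed within 2-fold of WT. The authors' pooled means of Arntl, the partner that all E-box activation by the pair needs, were 158.5 normalized counts over Ft1ko and WT hearts, 173.3 over Ft1sm22ko and WT hearts and 390.8 over Ft1sm22ko and Ft1ko hearts. The median gene with a pooled mean of at least 100 stood at 403.5, 546.3 and 837.5 in these tables, so relative to that median Arntl was highest in the table that holds no WT heart. The solved means of Arntl were 226.5 in Ft1ko, 152.9 in Ft1sm22ko and 90.6 in WT, with log2 ratios of 1.32 for Ft1ko over WT and 0.76 for Ft1sm22ko over WT. The first of these lay above 90.2% of all genes and the second above 83.5%. Clock, the DNA-binding partner of Arntl, had pooled means of 552.6, 875.7 and 1104 in the same 3 tables. Its solved means were 416.1 in Ft1ko, 599.4 in Ft1sm22ko and 689.0 in WT, which is a log2 ratio of -0.73 in Ft1ko and -0.20 in Ft1sm22ko over WT, the second of them inside the 25th to 75th percentile of all genes. Npas2, which can stand in for Clock, had the smallest differences of the 3 activators in Ft1ko, at 141.2 normalized counts in Ft1ko, 170.7 in Ft1sm22ko and 128.4 in WT. Its log2 ratio over WT was 0.14 in Ft1ko and 0.41 in Ft1sm22ko.

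Among the repressors, Per1 and Per3 were lower in both mutants, Per2 and Cry2 stood near WT and Cry1 was higher. Per1, a repressor that light and hormone signals also induce directly, had pooled means of 2041 over Ft1ko and WT hearts, 2299.8 over Ft1sm22ko and WT hearts and 2134 over Ft1sm22ko and Ft1ko hearts. It averaged 1261 in Ft1ko, 815.9 in Ft1sm22ko and 2820.5 in WT. This was a log2 ratio of -1.16 in Ft1ko and -1.79 in Ft1sm22ko over WT, and only 1.64% of all genes lay below the second value. The 5th percentile of all genes lay at -1.30 in Ft1sm22ko over WT. Per3, the Per gene with 2 D-boxes in its promoter window above, had pooled means of 487.1, 669.4 and 619.1 in the 3 tables. It averaged 259.1 in Ft1ko, 316.9 in Ft1sm22ko and 715.0 in WT, a log2 ratio of -1.46 and -1.17 over WT in the 2 mutants. Its gene model overlaps Camta1 on the same strand, and Camta1 had log2 ratios of -1.21 and -0.49 over WT in Ft1ko and Ft1sm22ko.

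Per2, which like Per1 acts together with the Cry proteins, averaged 203.3 in Ft1ko, 171.7 in Ft1sm22ko and 240.3 in WT. Its log2 ratios over WT, -0.24 in Ft1ko and -0.48 in Ft1sm22ko, lay inside the middle range of all genes, which ran from -0.62 to 0.61 and from -0.50 to 0.51 (25th to 75th percentile). Cry1, a strong repressor of the Clock and Arntl pair whose RNA peaks later than that of the other E-box genes in mouse tissues, stood on the other side of WT from Per1 and Per3. It averaged 220.6 in Ft1ko, 225.5 in Ft1sm22ko and 126.5 in WT, with log2 ratios over WT of 0.80 and 0.83. Cry1 and Per1 both carry an E-box in the windows printed above, and their ratios over WT had opposite signs in both mutants. Cry2, the relative of Cry1, averaged 366.5 in Ft1ko, 322.7 in Ft1sm22ko and 338.4 in WT. Its log2 ratios over WT of 0.11 and -0.07 were the smallest among the repressors in both mutants, and both changed sign under 3 or more of 11 other settings. The Ft1ko ratios of Npas2 and Per2 also changed sign, in 4 and 1 of these settings.

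Both outputs were lower in the mutants, and Dbp was the 1 clock gene that differed by 2-fold or more between the mutants. Dbp, a transcription factor of the PAR bZIP family that acts on D-boxes, had pooled means of 542.7 over Ft1ko and WT hearts, 849.7 over Ft1sm22ko and WT hearts and 637.1 over Ft1sm22ko and Ft1ko hearts. The solved means were 171.4 in Ft1ko, 397.6 in Ft1sm22ko and 913.9 in WT. Dbp was thus 5.33-fold lower in Ft1ko than in WT (log2 ratio -2.41, with 1.46% of all genes below) and 2.30-fold lower in Ft1sm22ko than in WT (log2 ratio -1.20). The direct ratio of Ft1sm22ko over Ft1ko was 1.21 on the log2 scale, higher than 97.8% of all genes. This passed 2-fold by a small margin, and 3 of 11 other settings put it between 0.84 and 0.93. Nr1d1, the repressor of Arntl, had pooled means of 917.1, 1133 and 1123 in the 3 tables. It averaged 572.9 in Ft1ko, 497.5 in Ft1sm22ko and 1261 in WT, a log2 ratio of -1.14 and -1.34 over WT. With the tables scaled on genes with a mean of at least 1000, the Ft1ko value was -0.88 for Nr1d1 and -0.93 for Per1, both inside 2-fold.

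Nr1d1 overlaps Thra, the thyroid hormone receptor alpha gene, on the opposite strand, and Dbp overlaps Sphk2, a sphingosine kinase gene, in the same way. The libraries kept strand. Whether the counting used it is not given in the sources used here, and without it reads in such an overlap cannot be assigned to either gene. Thra had log2 ratios of 0.65 in Ft1ko and 0.45 in Ft1sm22ko over WT, opposite in sign to those of Nr1d1. Sphk2 stood at 0.13 and -0.00 over WT, against -2.41 and -1.20 for Dbp.

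**Figure D2:**
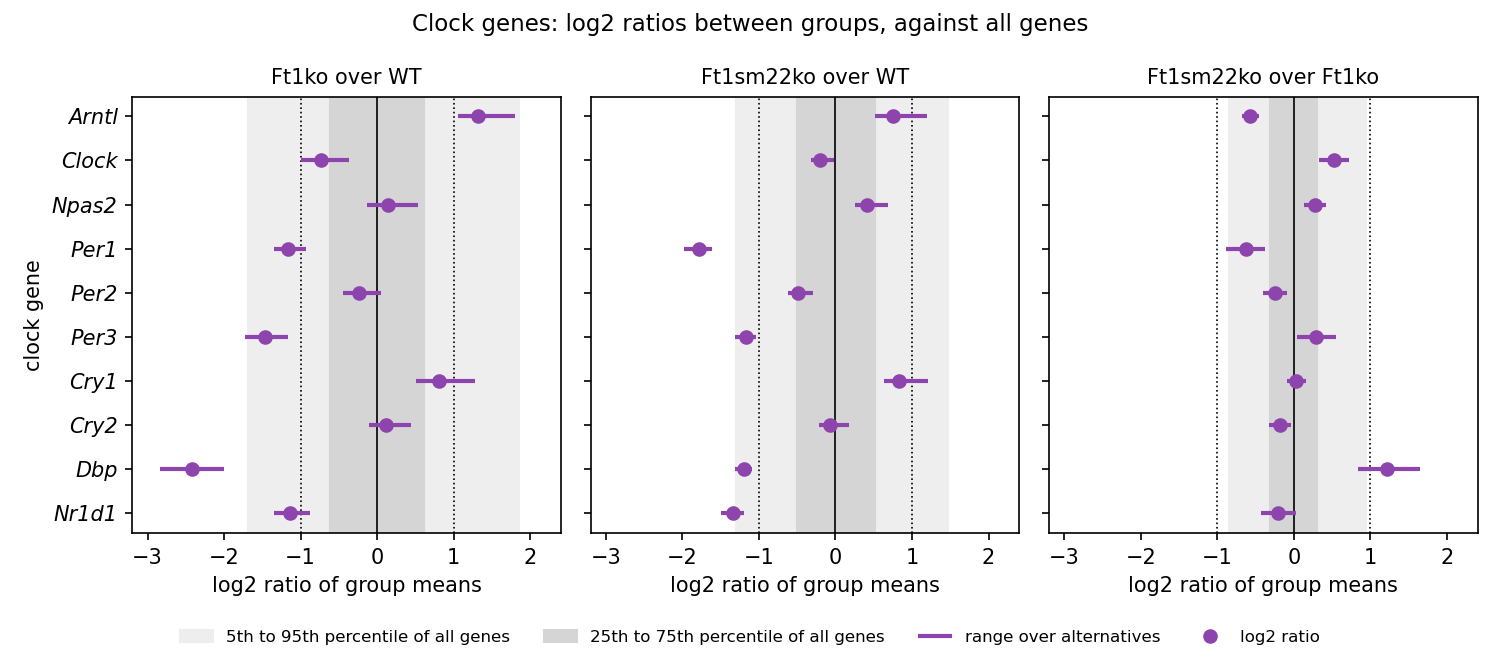
Log2 ratios of the 10 clock genes (points) in 3 panels, each mutant over WT and then Ft1sm22ko over Ft1ko, with the range over 11 other settings (lines) and the 25th to 75th and 5th to 95th percentiles of all genes (bands). Dotted lines mark 2-fold. Dbp lies at -2.41 in the first panel and Per1 at -1.79 in the second, both left of the outer band.

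The cardiomyocyte markers were lower in the mutants by amounts that overlapped those of the clock genes. In Ft1ko over WT, the 4 clock genes past 2-fold downwards ran from -2.41 to -1.14 on the log2 scale, and the 6 cardiomyocyte markers from -2.61 to -1.23. In Ft1sm22ko over WT the 4 clock genes ran from -1.79 to -1.17, and the markers from -1.73 to -0.05. Arntl and Cry1, at 1.32 and 0.80 in Ft1ko and 0.76 and 0.83 in Ft1sm22ko, were on the opposite side of WT. Markers of other heart cells did not share 1 level. The 4 fibroblast markers (Pdgfra, Dcn, Col1a1 and Tcf21) had a median log2 ratio over WT of 1.35 in Ft1ko (range -0.10 to 2.43) and 1.47 in Ft1sm22ko (range 0.81 to 2.24). The 4 smooth muscle markers (Acta2, Myh11, Tagln and Cnn1), of the cell type in which the sm22 promoter is active, had a median of 1.87 in Ft1ko (range -0.22 to 5.32) and 0.70 in Ft1sm22ko (range -0.19 to 4.49). Both upper ends were Cnn1, whose solved WT mean was only 11.2 normalized counts. Over other settings its ratio ran from 3.80 to 7.49 in Ft1ko and from 2.94 to 6.60 in Ft1sm22ko. The 4 endothelial markers had a median of 0.13 and 0.39, with Pecam1, Cdh5 and Kdr above 0 and Tie1 at -0.77 in Ft1ko and -0.66 in Ft1sm22ko. The part of these markers in the clock values was not tested.

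Each clock gene was also set against Arntl within its own group, where a factor common to all genes of a group cancels. Such a ratio depends on the lengths of both genes, so only its difference between groups is read. On the log2 scale the difference from WT is the gene's own ratio minus that of Arntl (1.32 in Ft1ko, 0.76 in Ft1sm22ko). It adds no evidence to the ratios above, and the higher Arntl of the mutants lowers all 9. Npas2, at 0.14 and 0.41 over WT on its own, thus falls below WT here. The solved WT mean of Arntl, 90.6, has an error of unknown size that enters every WT ratio. Dbp stood at 0.757 times Arntl in Ft1ko, 2.60 times in Ft1sm22ko and 10.1 times in WT. The log2 of this ratio was lower than in WT by 3.74 in Ft1ko and by 1.96 in Ft1sm22ko, or 13.3-fold and 3.88-fold. Nr1d1 stood at 2.53 times Arntl in Ft1ko, 3.25 times in Ft1sm22ko and 13.9 times in WT, which is 5.50-fold and 4.28-fold lower than in WT. Per1 over Arntl was 5.57 in Ft1ko, 5.34 in Ft1sm22ko and 31.1 in WT, and Per3 over Arntl 1.14, 2.07 and 7.89. Of the 9 genes set against Arntl, the ratio of Cry1 was the one that differed least from WT, at 0.974 in Ft1ko, 1.47 in Ft1sm22ko and 1.40 in WT. Over the 11 other settings without the pseudocount of 10, the log2 difference from WT of the Dbp to Arntl ratio ran from -4.02 to -3.50 in Ft1ko and from -2.30 to -1.77 in Ft1sm22ko. In mouse tissues RNAs such as Dbp and Arntl swing through the day in opposite phase. Whether they did so in these hearts of 1 week of age was not tested. A difference in the hour of collection cannot be told apart from one of genotype with these data.

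**Figure D3:**
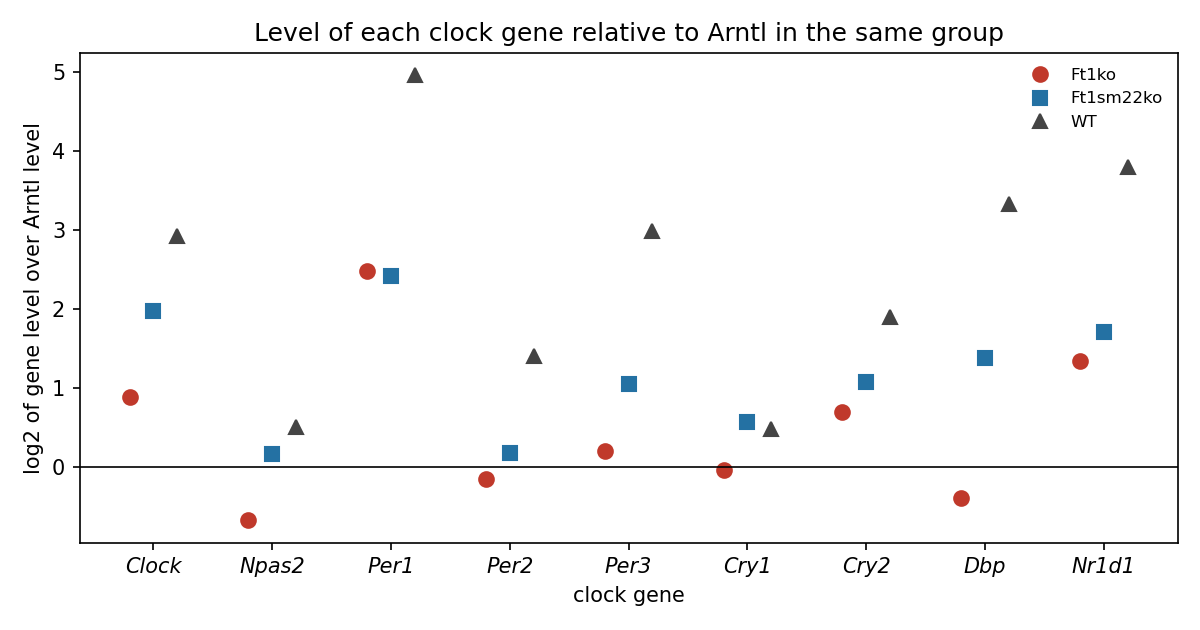
Log2 of the level of 9 clock genes divided by that of Arntl in the same group, for Ft1ko, Ft1sm22ko and WT hearts, with no error bars because values per heart were not used. WT is highest for every gene but Cry1, and the gap to WT is widest for Dbp in Ft1ko (-0.40, against 3.33 in WT) and for Per1 in Ft1sm22ko (2.42, against 4.96 in WT). All 9 points of a group share its Arntl mean, which is lowest in WT, so they are not independent.

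A wider list of 26 clock genes covered receptors of the second loop, PAR bZIP factors, other repressors, kinases and turnover factors, and clock-controlled outputs. It too was chosen with earlier results of these data known. All 26 were in the tables and 22 had a pooled mean of at least 100 in each. Of these 22, 2 were at least 2-fold higher and 6 at least 2-fold lower in Ft1ko over WT, against 14.6% and 14.7% of all genes. In Ft1sm22ko over WT 0 were higher and 3 lower, against 10.5% and 9.53% of all genes, and between the mutants 0 passed in either direction. The median log2 ratio of the 22 was 0.10 in Ft1ko and -0.22 in Ft1sm22ko over WT, and 0.05 in Ft1sm22ko over Ft1ko.

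The wider genes with the roles of Nr1d1 and Dbp were mostly lower in the mutants. Nr1d2, the relative of Nr1d1, averaged 446.6 in Ft1ko, 757.3 in Ft1sm22ko and 1169 in WT (log2 ratios over WT of -1.39 and -0.63). Rora, an activator at the RORE sequences where Nr1d1 represses, averaged 308.8 in Ft1ko, 285.0 in Ft1sm22ko and 593.3 in WT (log2 ratios -0.94 and -1.06). Tef, a PAR bZIP factor like Dbp, averaged 513.0 in Ft1ko, 766.4 in Ft1sm22ko and 1481 in WT (log2 ratios -1.53 and -0.95), and the third factor of the family, Hlf, had log2 ratios of -0.24 and 0.57. Nfil3, which represses at D-boxes, stood at 0.24 and 0.59. Cipc, an inhibitor of the Clock protein, averaged 270.5 in Ft1ko, 391.2 in Ft1sm22ko and 702.4 in WT (log2 ratios -1.38 and -0.84).

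The kinases and turnover factors mostly stayed within 2-fold. Csnk1d, Csnk1e and Gsk3b, kinases that mark clock proteins, ran from 0.11 to 0.49 in Ft1ko and from -0.40 to 0.27 in Ft1sm22ko over WT on the log2 scale. Usp2, a deubiquitinase whose RNA follows the clock in mouse tissues, had the lowest ratios of the 22, with 540.8 normalized counts in Ft1ko, 851.9 in Ft1sm22ko and 3490.4 in WT (log2 ratios -2.69 and -2.03). Fbxw11, a subunit of a ubiquitin ligase that acts on Per proteins, was higher, with 672.7 in Ft1ko, 608.4 in Ft1sm22ko and 328.0 in WT (log2 ratios 1.04 and 0.89).

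The clock-controlled outputs were split. Klf15, a regulator of metabolism in the heart, averaged 95.1 in Ft1ko, 124.7 in Ft1sm22ko and 264.1 in WT (log2 ratios -1.47 and -1.08). Alas1, the first enzyme of heme synthesis, averaged 974.1 in Ft1ko, 1689 in Ft1sm22ko and 2214 in WT (log2 ratios -1.18 and -0.39). Por, the electron donor of cytochrome P450 enzymes, was higher, at 1059 in Ft1ko, 710.2 in Ft1sm22ko and 512.3 in WT (log2 ratios 1.05 and 0.47). Wee1, a cell cycle kinase with E-boxes in its mouse promoter, had log2 ratios of 0.77 and 0.90.

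**Figure D4:**
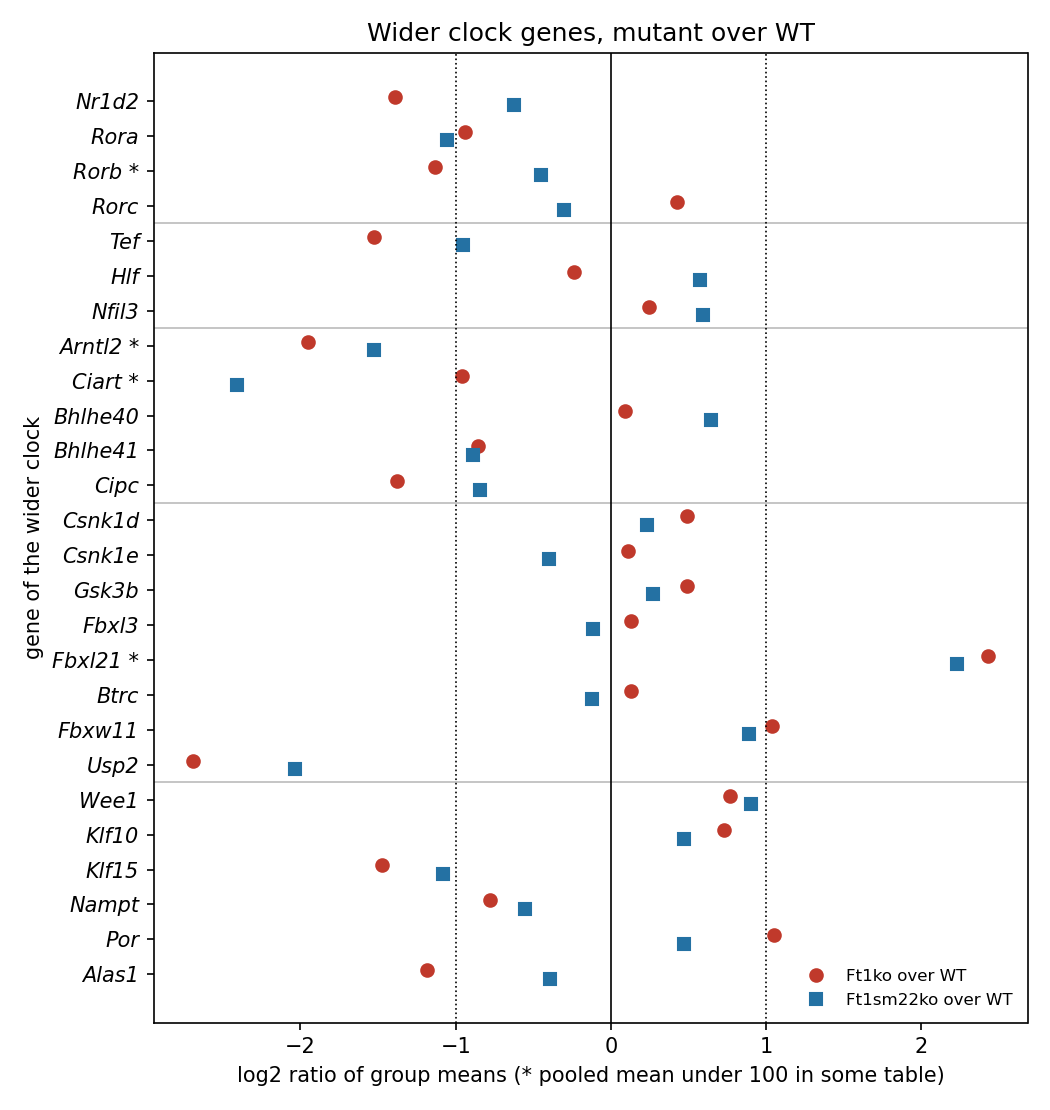
Log2 ratios of 26 wider clock genes for Ft1ko over WT (circles) and Ft1sm22ko over WT (squares), with horizontal lines between the 5 groups of genes and dotted lines at 2-fold. Usp2 lies furthest left in Ft1ko at -2.69, and genes with a star have a pooled mean under 100 in at least 1 table.

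Per1 also responds to glucocorticoids and to acute stimuli, so 8 genes of each kind were set beside it. Both lists were chosen with earlier results of these data known, so counts above the share of all genes are not independent evidence. Of the glucocorticoid-induced genes Klf9, Zbtb16, Tsc22d3 and Nfkbia were at least 2-fold lower in Ft1ko over WT (4 of 8, against 14.7% of all genes), and the same genes with Sgk1 in Ft1sm22ko over WT (5 of 8, against 9.53%). In both mutants 7 of the 8 had ratios below 0, with a median log2 ratio of -1.01 in Ft1ko and -1.18 in Ft1sm22ko over WT. The exception was Fkbp5, which was at least 2-fold higher in both (log2 ratios 2.57 and 1.14, against a background of 14.6% and 10.5%). Of the 8 immediate early genes, induced within minutes of a stimulus, 7 had a pooled mean of at least 100 in every table, as the background genes did. Of these 7, and of all 8, 0 passed 2-fold in Ft1ko over WT, where 14.6% of all genes passed it upwards and 14.7% downwards. Fos passed it upwards in Ft1sm22ko over WT (1 of these 7, against 10.5% of all genes), at 319.3 normalized counts in Ft1sm22ko and 158.2 in WT (log2 ratio 1.01). In both mutants 5 of these 7 had ratios below 0 and 2 above, with a median log2 ratio of -0.72 in Ft1ko and -0.10 in Ft1sm22ko over WT. Egr1 had log2 ratios of -0.88 in Ft1ko and 0.10 in Ft1sm22ko, against -1.16 and -1.79 for Per1.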

How the data were processed

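RNA was sequenced from hearts of 3 Ft1ko, 4 Ft1sm22ko and 3 WT mice. The authors aligned reads with STAR to a reference named hg38 in the paper and the submitters' processing notes, although the gene symbols are those of the mouse (95.2% of 16440 are mouse RefSeq symbols), counted reads per gene with htseq-count and fitted DESeq2 to each pair of groups. No versions are given for HTSeq, nor for StringTie, which the notes also list. The signal used here is the mean normalized count of each pair, as deposited. The other 5 columns of each table hold the authors' own fold change, its standard error, statistic and p, and were not used. Depth per library is unknown, since each value pools hearts.

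For each gene, 3 group means were solved from the 3 pooled means and the numbers of hearts. Tables were brought to 1 scale so that the median log2 ratio over WT of the 9773 genes with a pooled mean of at least 100 in each table was 0 for both mutants (factors of 0.728 for Ft1sm22ko and WT, and 0.472 for Ft1sm22ko and Ft1ko). The solver was tested on simulated data in which few genes differed between groups and ribosomal RNA and tissue makeup were alike. That test cannot show that 1 scale per table holds for these hearts, whose groups differ more widely. Of the 9773 genes 13 had a WT mean at or under 0, and among all 16440 genes 529 did. Such a gene has no ratio here, and counts in the background as past 2-fold. The pooled means alone hold no spread between hearts, so no test was run and a limit of 2-fold was used. All 10 clock genes, and wider genes past 2-fold with a mean of at least 100, are named by rule; Hlf, Nfil3, Wee1, the kinases, Egr1 and genes overlapping a member were named after their values were seen. The members and lists were chosen with earlier results of these data known. The alternatives were other scalings of the tables, a pseudocount of 10 and a limit of 1.5-fold. A log2 ratio or a median was taken to have moved if it shifted by more than an approximate 95% counting error. This error treats the solved means as read counts, so it leaves out the error of solving them. A count of genes past the limit was taken to have moved if it changed by more than 1.5-fold. Scripts ran on Python 3.11.15 with numpy 2.4.6, pandas 2.3.3 and scipy 1.17.1, and figures on matplotlib 3.10.9. Overlapping genes were read from GENCODE M21 and promoters from RefSeq (GRCm38.p6).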

Additional observations from a re-analysis of the deposited data

How the results depend on the processing

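No paired analysis was possible because pooled means hold no values per heart, and for the same reason leaving out each replicate was not run. Under 11 settings other than the Y-linked scaling, 110 of 110 ratios past 2-fold kept their sign and 104 stayed past 2-fold. The 6 that did not were Dbp for Ft1sm22ko over Ft1ko in 3 settings (0.84 to 0.93), Nr1d1 for Ft1ko over WT in 2 (-0.88 and -0.97) and Per1 for Ft1ko over WT in 1 (-0.93), each with the scaling on genes of a mean of at least 1000 or a 5% change of 1 table. In Ft1sm22ko over WT, 0 higher and 4 lower as reported became 2 higher and 4 lower with the scaling on a mean of at least 1000 and with the Ft1sm22ko and Ft1ko table raised by 5%. Ft1ko over WT, 1 higher and 4 lower as reported, had 2 higher and 2 lower with the scaling on a mean of at least 1000, 2 higher and 4 lower with that table raised, and with scaling on all genes 1 higher and 5 lower. The sign of Npas2, Cry2 and Per2 over WT and of Cry1 and Nr1d1 between the mutants turned in 1 to 4 settings. The number of clock genes past 2-fold between the mutants, 1 as reported, was 0 with the scaling on a mean of at least 1000, 0 with the Ft1ko and WT table raised by 5%, 0 with the Ft1sm22ko and WT table lowered by 5%, and 2 with a limit of 1.5-fold.
The median log2 ratio of the 10 genes for Ft1ko over WT was -0.62 with scaling on a mean of at least 10, -0.16 on a mean of at least 1000, -0.73 on all genes, -0.67 and -0.31 with the Ft1sm22ko and WT table raised and lowered by 5%, and -0.33 and -0.64 with the Ft1sm22ko and Ft1ko table raised and lowered. For Ft1sm22ko over WT it was -0.15 on a mean of at least 1000, -0.47 and -0.22 with the Ft1ko and WT table raised and lowered, and -0.22 and -0.47 with the Ft1sm22ko and Ft1ko table raised and lowered. For Ft1sm22ko over Ft1ko it was 0.072 with the Ft1ko and WT table lowered and 0.089 with the Ft1sm22ko and WT table raised. Scaling on the Y-linked genes gave medians of -1.55 and 0.30 for Ft1ko and Ft1sm22ko over WT, and 2.14 between the mutants, with 0 higher and 4 lower past 2-fold in Ft1ko over WT (Clock, Npas2, Per2 and Cry2), 2 higher (Arntl and Cry1) and 0 lower in Ft1sm22ko over WT, and 5 higher and 0 lower between the mutants, but Per1, Per3, Dbp and Nr1d1 then had no ratio in Ft1ko, and it assumes males alone, which the Xist values go against. The cause of the other shifts was not tested. Depth per heart is unknown, so no value here can be weighed by its depth, and none has a spread between hearts.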
